A study of Mus musculus with 8 samples.

Results

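The MHC class II presentation genes described here were Cd74, H2-Aa, H2-Ab1, H2-Eb1, H2-DMa, H2-DMb1 and Ciita. Every probe set of the array annotated to exactly 1 of these 7 genes was taken, which gave 8 of the 12422 probe sets. H2-DMa was read by 2 probe sets and each of the other genes by 1. A further probe set was annotated to H2-DMb1 together with its neighbour H2-DMb2, and it is given as shared and not counted among the 8. The filter on low values was passed by 7 of the 8, 1 for each gene, and the probe set that did not pass was the dim second probe set of H2-DMa.

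RNA of whole mouse colon was measured on 8 Affymetrix arrays, 1 for each pool of 4 or 5 animals, with 7 µg of RNA from each animal. The groups were C57BL/6J Il10-null and C57BL/6J wild type, and C3H/HeJBir Il10-null and C3H/HeJBir wild type, with 2 pools in each, which the labels number sample 1 and sample 2. The Il10-null animals carried the targeted allele Il10tm1Cgn of the gene for interleukin 10, a cytokine that restrains macrophages, dendritic cells and T helper cells in the gut. An age of 4 weeks is given for 1 pool, sample 2 of C57BL/6J wild type. For the other pools the sources used here give neither an age nor, for any pool, the sex of the animals or their state of inflammation.

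MHC class II molecules carry peptides of ingested proteins to the cell surface, where CD4+ T cells read them. The alpha chain H2-Aa pairs with the beta chain H2-Ab1, and H2-Eb1 is the beta chain of the second molecule, whose alpha chain is H2-Ea. Cd74, the invariant chain, escorts the newly made molecules and blocks their groove, and the heterodimer of H2-DMa and H2-DMb1 exchanges the remnant of Cd74 for peptide. Ciita is the transactivator that switches the other genes on together, either constitutively in dendritic cells and B cells or after interferon gamma in macrophages, epithelium and other cells. C57BL/6J carries the b haplotype of the H2 region and C3H strains the k haplotype, and H2-Aa, H2-Ab1 and H2-Eb1 are among the most polymorphic genes of the mouse.

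Ciita does not bind DNA itself, and joins the factors RFX, CREB and NF-Y on a pair of promoter elements, the X box and the Y box. The stretches with both elements are shown because 6 of the 7 genes, all but Ciita, had their readings closely correlated across the pools. Whether the elements have a part in that correlation was not tested. The RefSeq promoter windows of GRCm38.p6, the C57BL/6J assembly, run from 250 bases before to 50 bases after a gene's start. They were searched for GNAACT, letters taken to stand for the core of the X box, followed on the strand of the gene by TGATTGG, the Y box, after a gap of 15 to 25 bases, which lets them share no base. Capitals mark both elements, and each stretch is given 5′ to 3′ on the strand of its gene.
H2-DMb1: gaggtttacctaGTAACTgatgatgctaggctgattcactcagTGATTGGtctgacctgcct
H2-Aa: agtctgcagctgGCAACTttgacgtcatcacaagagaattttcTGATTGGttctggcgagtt
H2-Eb1: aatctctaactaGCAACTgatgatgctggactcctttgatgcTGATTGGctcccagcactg
H2-Eb2: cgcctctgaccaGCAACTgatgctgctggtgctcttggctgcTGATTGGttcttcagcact

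The H2-DMb1 stretch is chr17:34153085-34153146 on the plus strand, H2-Aa chr17:34287855-34287916 on the minus strand, H2-Eb1 chr17:34305764-34305824 on the plus strand and H2-Eb2 chr17:34325531-34325591 on the plus strand. The gap between the elements was 25 bases in H2-DMb1 and H2-Aa and 24 bases in H2-Eb1 and H2-Eb2. Of all 32851 promoter windows 33 held the ordered pair, or 0.1%, while on either strand GNAACT alone was found in 42.8% and TGATTGG alone in 7.82%. The windows of H2-DMa, and those of the related chains H2-DMb2, H2-Oa and H2-Ob, did not hold the pair. The promoters of Cd74, H2-Ab1 and Ciita were not analysed here. H2-Eb2, a paralogue of H2-Eb1 with the same arrangement, read only 2.17 and 3.25 in C57BL/6J Il10-null, against 4.18 and 6.02 in C57BL/6J wild type, and 3.25 and 3.88 in C3H/HeJBir Il10-null, against 2.46 and 1.91 in C3H/HeJBir wild type.

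All intensities below are the deposited linear values, given as sample 1 and sample 2 of a group. Median intensity per array ran from 50.1 to 62.1, and with 8 arrays in all the precision is limited by their number. Sample 1 of C3H/HeJBir Il10-null stood farthest from the others, its values having a mean Spearman correlation of 0.915 with those of the rest, compared with means from 0.931 to 0.945 for the 7 remaining pools. Intensity of Xist, which is transcribed in female cells, was 243 to 452 in sample 1 pools but 2.84 to 12.9 in sample 2 pools. The Y-linked gene Eif2s3y separated them less clearly, at 39.7 to 318 in sample 1 pools and 256 to 411 in sample 2 pools. The hybridisation days in the experiment files were 3. Il10-null pools numbered sample 1 were hybridised on day 1, wild-type pools numbered sample 1 on day 2, and every sample 2 pool on day 3, so that a comparison of the genotypes inside 1 day exists for sample 2 alone. The probe set of Il10 read 51.7 and 22.03 in C57BL/6J Il10-null, against 9.70 and 7.34 in C57BL/6J wild type, and 28.3 and 35.4 in C3H/HeJBir Il10-null, against 5.43 and 10.9 in C3H/HeJBir wild type. The position of its probes in the targeted allele is unknown here, so it checks no label.

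Cd74 read 940.0 and 2718 in C57BL/6J Il10-null, against 529 and 399 in C57BL/6J wild type. C3H/HeJBir readings were 3776 and 1605 in Il10-null, against 583 and 1079 in wild type. Both Il10-null pools lay above both wild-type pools in each strain, and the highest pool, sample 1 of C3H/HeJBir Il10-null, was 9.47 times the lowest, sample 2 of C57BL/6J wild type. On the scale of log2(intensity + 11.07), Il10-null minus wild type was 1.78 ± 0.58 in C57BL/6J and 1.62 ± 0.58 in C3H/HeJBir (SE, limma, n = 2 pools each). Neither passed the test over all probe sets (adjusted p = 1.000 and 0.999), with unadjusted p of 0.0144 and 0.022.

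The alpha chain H2-Aa had a highest pool 10.2 times its lowest, the same pools as for Cd74. It read 517 and 1975 in C57BL/6J Il10-null, against 479 and 376 in C57BL/6J wild type. The C3H/HeJBir pools read 3834 and 1203 in Il10-null, against 593.5 and 761 in wild type. The sample 1 C57BL/6J Il10-null pool lay just above the wild-type pools of its strain, and the other Il10-null pools well above theirs. The log2 difference was 1.23 ± 0.67 in C57BL/6J (limma adjusted p = 1.000) and 1.66 ± 0.67 in C3H/HeJBir (adjusted p = 0.999).

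The beta chain H2-Ab1 was high in 2 of the 8 pools. It read 129 and 365 in C57BL/6J Il10-null, against 114 and 88.9 in C57BL/6J wild type. Among C3H/HeJBir pools it read 370.2 and 89.7 in Il10-null, against 83.0 and 83.0 in wild type. The groups did not overlap in either strain, but in C3H/HeJBir the sample 2 Il10-null pool lay only just above the wild-type pools. The log2 difference was 1.03 ± 0.63 in C57BL/6J and 1.06 ± 0.63 in C3H/HeJBir (limma adjusted p = 1.000 and 0.999).

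The second beta chain, H2-Eb1, read 219.6 and 393 in C57BL/6J Il10-null, against 166 and 129 in C57BL/6J wild type. In C3H/HeJBir it read 653 and 168 in Il10-null, against 214 and 142 in wild type. The C3H/HeJBir groups overlapped, since the sample 2 Il10-null pool lay below the sample 1 wild-type pool. Leaving out sample 1 of the Il10-null group turned the log2 difference of 0.89 ± 0.57 to -0.05. In C57BL/6J the groups did not overlap and the log2 difference was 0.95 ± 0.57 (limma adjusted p = 1.000, and 0.999 in C3H/HeJBir).

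H2-DMa, the alpha chain of the peptide exchanger, read 147 and 311 in C57BL/6J Il10-null, against 76.8 and 41.9 in C57BL/6J wild type. Its C3H/HeJBir values were 547 and 189.7 in Il10-null, against 103 and 131 in wild type. The groups were apart in both strains, the log2 difference being 1.73 ± 0.53 for C57BL/6J and 1.40 ± 0.53 for C3H/HeJBir (limma adjusted p = 1.000 and 0.999). Its second probe set did not repeat this. It read 15.9 and 14.5 in C57BL/6J Il10-null, against 24.9 and 9.25 in C57BL/6J wild type, and 72.6 and 12.7 in C3H/HeJBir Il10-null, against 26.8 and 8.64 in C3H/HeJBir wild type. With a mean of 23.2 it lay below the filter of 37.0, and its groups overlapped in both strains.

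H2-DMb1, the beta chain of the exchanger, read 72.35 and 278 in C57BL/6J Il10-null, against 49.1 and 39.7 in C57BL/6J wild type. In C3H/HeJBir it read 675 and 161 in Il10-null, against 67.5 and 104 in wild type. It had the widest range of the 7 genes, with the highest pool 17.0 times the lowest, and its log2 difference was 1.49 ± 0.71 in C57BL/6J and 1.85 ± 0.71 in C3H/HeJBir (limma adjusted p = 1.000 and 0.999). The probe set shared with H2-DMb2 read 51.9 and 77.5 in C57BL/6J Il10-null, against 22.1 and 18.8 in C57BL/6J wild type, and 197 and 61.1 in C3H/HeJBir Il10-null, against 53.4 and 46.9 in C3H/HeJBir wild type. It too was apart in both strains, by a log2 of 1.25 ± 0.45 and 1.00 ± 0.45 (limma adjusted p = 1.000 and 0.999). H2-DMb1 and H2-DMb2 are near-identical copies, and how far the probes of one bind RNA of the other is unknown here.

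The transactivator Ciita read 11.15 and 62.4 in C57BL/6J Il10-null, against 28.4 and 26.1 in C57BL/6J wild type. Its C3H/HeJBir pools read 40.4 and 40.4 in Il10-null, against 54.5 and 42.4 in wild type. The sample 1 C57BL/6J Il10-null pool was its lowest and the sample 2 pool of the same group its highest, while in C3H/HeJBir both Il10-null pools lay below both wild-type pools. The log2 difference was 0.08 ± 0.48 in C57BL/6J and -0.20 ± 0.48 in C3H/HeJBir (limma adjusted p = 1.000 and 0.999), with 95% confidence intervals of -1.02 to 1.18 and -1.30 to 0.89. The mean of Ciita, 38.2, stood just above the filter, so this probe set is a weak measure.

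**Figure D1:**
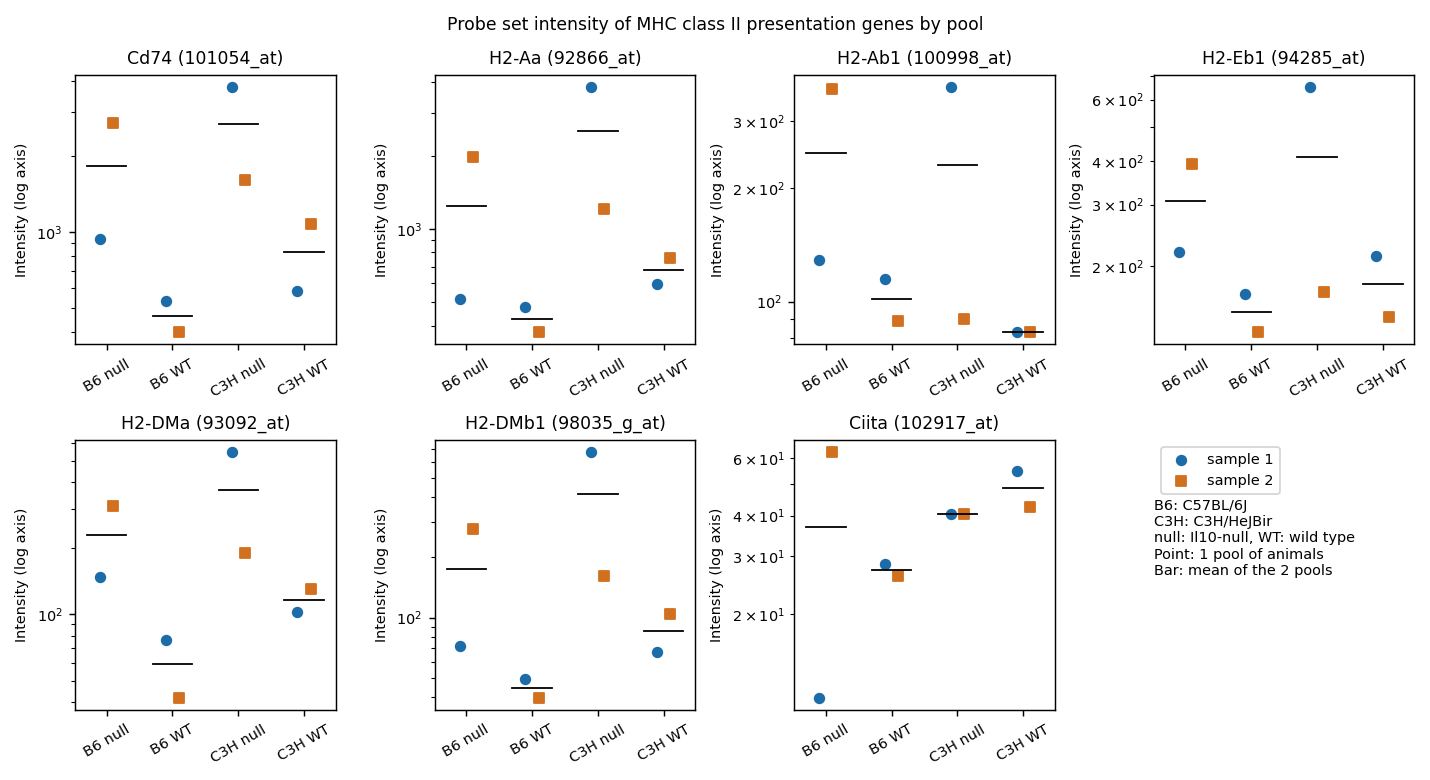
Intensity (log axis) of the probe set of each of the 7 genes in every pool, with the 2 pools of a group as a circle (sample 1) and a square (sample 2) and a bar at their mean. Sample 1 of C3H/HeJBir Il10-null is the highest and sample 2 of C57BL/6J Il10-null the second highest pool of each gene except Ciita.

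Counted over the genes, all 7 were positive in C57BL/6J, with a median log2 difference of 1.23 (2.35-fold), where all 7454 tested probe sets had a median of -0.01 and 48.9% positive. Both Il10-null pools exceeded both wild-type pools in 6 of the 7, against 12.6% of all tested probe sets. In C3H/HeJBir 6 of 7 were positive, with a median of 1.40 (2.64-fold) against -0.01 over all probe sets. There the Il10-null pools lay above without overlap in 5 of 7, against 11.3% of all, and Ciita lay below without overlap, as did 12.0% of all. The 5 genes apart and higher in both strains were Cd74, H2-Aa, H2-Ab1, H2-DMa and H2-DMb1, against 2.27% of all tested probe sets.

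None of these differences passed the limma test over the array. Of the 7 genes 0 were called at an adjusted p under 0.05 in either strain, where 0 and 1 of all 7454 probe sets were called, or 0 and 0.0134%. At an unadjusted p under 0.05 there were 2 genes in C57BL/6J (Cd74 and H2-DMa), against 1.58% of all, and 4 in C3H/HeJBir (Cd74, H2-Aa, H2-DMa and H2-DMb1), against 2.83% of all. Averaged over the strains 5 genes had an unadjusted p under 0.05, against 3.10% of all, and 0 were called, where 0% of all probe sets were called. The average log2 differences were 1.70 ± 0.41 for Cd74, 1.67 ± 0.50 for H2-DMb1, 1.56 ± 0.37 for H2-DMa, 1.45 ± 0.47 for H2-Aa, 1.05 ± 0.44 for H2-Ab1, 0.92 ± 0.40 for H2-Eb1 and -0.06 ± 0.34 for Ciita (limma adjusted p = 1.000 for each).

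**Figure D2:**
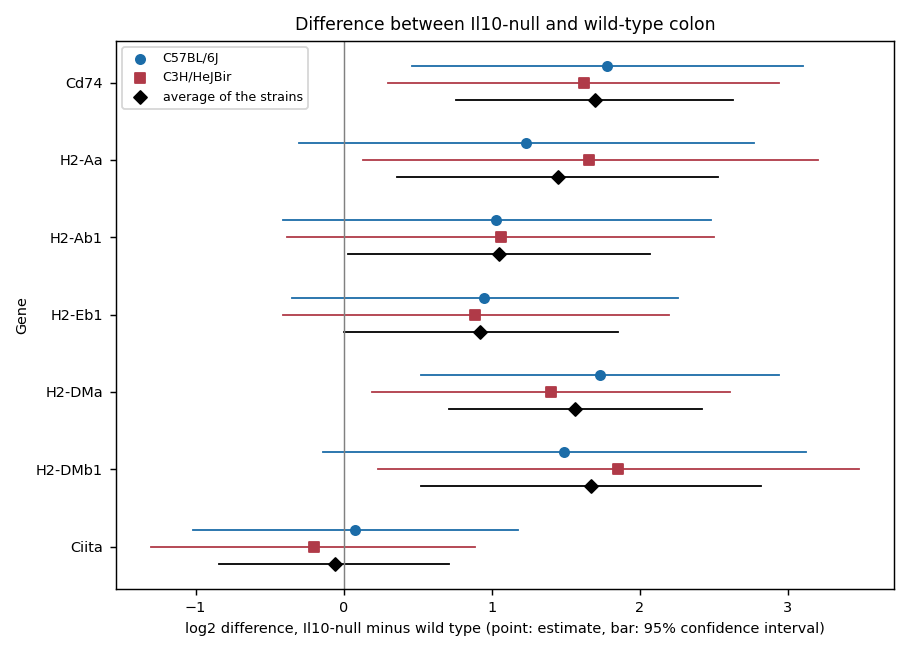
Log2 difference of each of the 7 genes, Il10-null minus wild type, in C57BL/6J, in C3H/HeJBir and averaged over the strains, with 95% confidence intervals of the limma fit. Points of Cd74, H2-Aa, H2-Ab1, H2-Eb1, H2-DMa and H2-DMb1 lie between 0.89 and 1.85 with wide intervals, and those of Ciita lie near 0.

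Whether the strains responded to a different extent was tested by the difference between the Il10 effects, C3H/HeJBir minus C57BL/6J. It ran from -0.33 ± 0.74 for H2-DMa to 0.43 ± 0.95 for H2-Aa, with a median of -0.06 over the 7 genes and -0.01 over all probe sets. No gene was called (limma adjusted p = 1.000 for each), as was none of the array (0%), and 0 of the 7 genes had an unadjusted p under 0.05, against 1.49% of all. The interval for Cd74, -2.02 to 1.71 on the log2 scale, reaches as far as the Il10 effect of either strain.

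Within a group the pools differed as much as the genotypes did. In C57BL/6J Il10-null the sample 2 pool exceeded the sample 1 pool in 7 of 7 genes, with a median log2 difference, sample 2 minus sample 1, of 1.52. In C3H/HeJBir Il10-null the sample 2 pool was the lower in 7 of 7, for Ciita at 40.37 beside 40.39, with a median of -1.66. Of all 7454 tested probe sets the sample 2 pool was the higher in 3408 for C57BL/6J Il10-null and in 3504 for C3H/HeJBir Il10-null. For the 7 genes the wild-type pools lay closer together, with a median of -0.34 for C57BL/6J and of 0.32 for C3H/HeJBir. Each strain thus had 1 high Il10-null pool, and these 2 pools bore opposite sample numbers, were hybridised on different days and differed in their Xist reading (4.08 in sample 2 of C57BL/6J Il10-null and 243 in sample 1 of C3H/HeJBir Il10-null).

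Comparing pools of the same number, the median difference of the 7 genes in C57BL/6J was 0.38 between the sample 1 pools and 2.36 between the sample 2 pools. In C3H/HeJBir it was 2.29 between the sample 1 pools and 0.50 between the sample 2 pools. The sample 2 values are the within-day values, and all 6 genes other than Ciita were positive in them in both strains, from 1.53 to 2.73 in C57BL/6J and from 0.10 to 0.65 in C3H/HeJBir. Of all 7454 tested probe sets 3718 were positive between the sample 2 pools of C57BL/6J and 3971 between those of C3H/HeJBir. Without the sample 2 Il10-null pool of C57BL/6J the median of the 7 genes in that strain was 0.55, and without its sample 1 Il10-null pool it was 2.19. Without the sample 1 Il10-null pool of C3H/HeJBir the median there was 0.66, and without its sample 2 Il10-null pool it was 2.14.

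**Figure D3:**
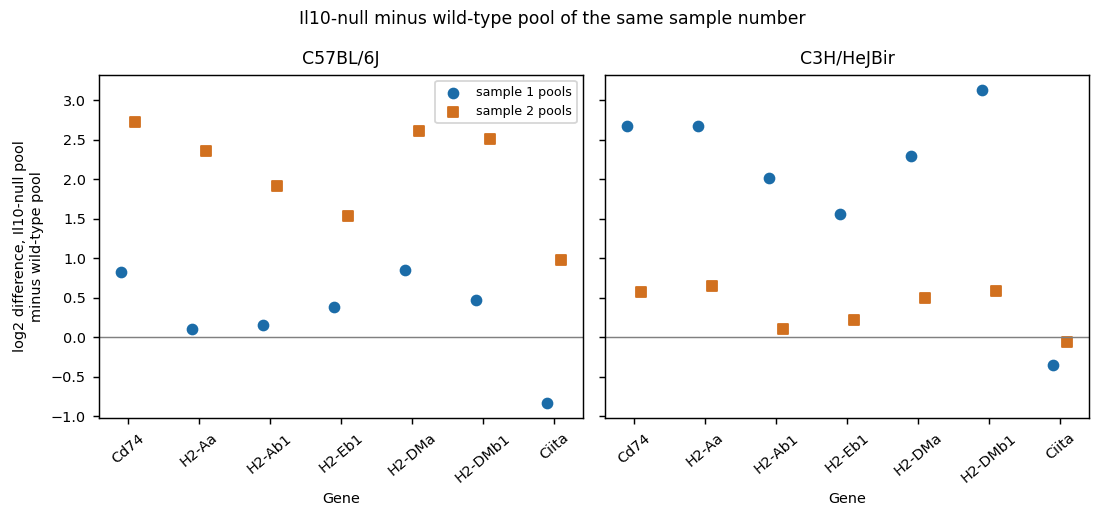
Log2 difference, Il10-null pool minus wild-type pool of the same sample number, for each of the 7 genes in C57BL/6J (left) and C3H/HeJBir (right), with circles for sample 1 and squares for sample 2. The sample 2 squares are the higher in C57BL/6J (median 2.36) and the sample 1 circles in C3H/HeJBir (median 2.29), except for Ciita in C3H/HeJBir, which is below 0 in both.

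As a description over the 8 pools, which share the group differences above, the 15 pairs among the 6 genes other than Ciita correlated with Pearson r from 0.804 to 0.995. After the group means were taken out the same pairs had r from 0.683 to 0.990. The 6 pairs with Ciita had r from 0.266 to 0.511 over the pools, and from 0.421 to 0.713 after the group means were taken out, a range that overlapped that of the other pairs. The mean log2 deviation of the 7 genes from their means over the arrays was -0.40 and 1.06 in C57BL/6J Il10-null, against -0.68 and -1.03 in C57BL/6J wild type, and 1.58 and 0.13 in C3H/HeJBir Il10-null, against -0.42 and -0.24 in C3H/HeJBir wild type. By this measure 3 of the 4 Il10-null pools lay above all wild-type pools, and the sample 1 C57BL/6J Il10-null pool lay between the wild-type pools of C3H/HeJBir.

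By group mean, Cd74, H2-Aa, H2-Eb1, H2-DMa and H2-DMb1 had one order of levels, C3H/HeJBir Il10-null first, then C57BL/6J Il10-null, C3H/HeJBir wild type and C57BL/6J wild type. For Cd74 these means were 2690.0, 1829, 831 and 464. The first pair of neighbours overlapped in all 5 genes, and C57BL/6J Il10-null overlapped C3H/HeJBir wild type in Cd74, H2-Aa and H2-DMb1. H2-Ab1 had another order, with C57BL/6J Il10-null at 247, C3H/HeJBir Il10-null at 229.9, C57BL/6J wild type at 102 and C3H/HeJBir wild type at 83.0. Ciita averaged 40.4 in C3H/HeJBir Il10-null, against 48.5 in C3H/HeJBir wild type, and 36.8 in C57BL/6J Il10-null, against 27.3 in C57BL/6J wild type, and its C57BL/6J Il10-null pools spanned all other groups.

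The comparison of C3H/HeJBir with C57BL/6J wild type asked whether the strains differed before any loss of Il10. Without overlap of the pools, 5 of 7 genes were higher in C3H/HeJBir, against 14.0% of all tested probe sets, namely Cd74, H2-Aa, H2-DMa, H2-DMb1 and Ciita. Their log2 differences ran from 0.63 ± 0.48 for Ciita to 0.90 ± 0.53 for H2-DMa, and the median over the 7 was 0.65, against -0.02 over all probe sets. H2-Ab1 went the other way, lower in C3H/HeJBir without overlap by a log2 of -0.25 ± 0.63, as 17.0% of all probe sets did, and H2-Eb1 overlapped at 0.24 ± 0.57. Of the 7 genes 0 were called (limma adjusted p = 1.000 for each), where 30 probe sets of the array were, or 0.402%, and 0 of the 7 had an unadjusted p under 0.05, against 5.67% of all.

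Between the Il10-null groups of C3H/HeJBir and C57BL/6J the pools of all 7 genes overlapped, so 0 of 7 were higher without overlap, against 11.9% of all tested probe sets. The log2 differences ran from -0.23 ± 0.63 for H2-Ab1 to 1.15 ± 0.71 for H2-DMb1, with a median of 0.57 against -0.02 over all probe sets. None of the 7 was called (limma adjusted p = 1.000 for each), where 0.295% of all probe sets were, and 0 of the 7 had an unadjusted p under 0.05, against 5.17% of all. The median was -0.14 without sample 1 of C57BL/6J Il10-null and 0.00 without sample 1 of C3H/HeJBir Il10-null, against 1.21 without sample 2 of C57BL/6J Il10-null and 1.23 without sample 2 of C3H/HeJBir Il10-null.

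Because the members of a class II molecule are encoded by alleles that differ between the b and k haplotypes, the difference of log2 values of 2 probe sets on the same array was compared between the strains, for 7 pairs of genes chosen after values had been seen. Such a difference shows unequal change, not which gene changed. H2-Ab1 minus H2-Aa was -3.33 and -3.59 in C3H/HeJBir Il10-null and -2.68 and -3.04 in C3H/HeJBir wild type, against -1.91 and -2.40 in C57BL/6J Il10-null and -1.96 and -1.95 in C57BL/6J wild type. All 4 C3H/HeJBir pools lay below all 4 C57BL/6J pools, by a mean of -1.10 (-3.16 ± 0.39 against -2.06 ± 0.23, SD, n = 4 each). The two-sided exact permutation p was 0.0286, the smallest that 4 against 4 allow, and 0.2 adjusted over the 7 pairs. The strain difference was -1.31 within the Il10-null pools, -0.90 within the wild-type pools, -1.07 within sample 1 and -1.14 within sample 2.

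No other pair separated the strains. H2-Ab1 minus Cd74 differed by -0.94 (exact permutation p = 0.0857, adjusted 0.3), H2-Eb1 minus H2-Aa by -0.66 (exact p = 0.171, adjusted 0.4) and H2-Eb1 minus Cd74 by -0.49 (exact p = 0.371, adjusted 0.5). The 3 pairs of H2-Aa, H2-DMa and H2-DMb1 with Cd74 differed by 0.17, 0.04 and 0.27 (exact p = 0.429, 0.886 and 0.229). With a pseudocount of 56.7 the H2-Ab1 minus H2-Aa difference was -0.99 and the pools overlapped, and with 2.76 it was -1.13 without overlap. The sources used here hold neither the probe sequences nor the haplotype they were designed on, so a strain difference in transcript and one in binding to the probes cannot be told apart for H2-Aa, H2-Ab1 and H2-Eb1. The comparisons of Il10-null with wild type were made within a strain.

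**Figure D4:**
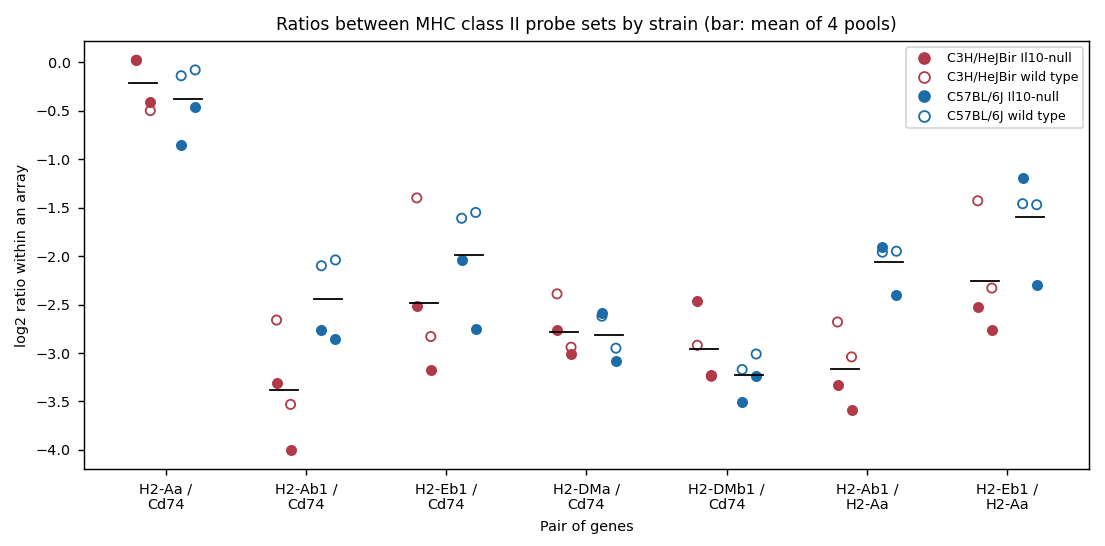
Difference of log2 values of 2 probe sets on the same array (log2 ratio) for 7 pairs of genes, with the 4 C3H/HeJBir pools left of the 4 C57BL/6J pools, filled points for Il10-null, open points for wild type and a bar at the mean. H2-Ab1 over H2-Aa is the pair in which the strains do not overlap, with means of -3.16 in C3H/HeJBir and -2.06 in C57BL/6J.

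Other chains of the class II family lay below the filter. H2-Ea, the alpha chain that H2-Eb1 needs and whose promoter is deleted in C57BL strains, read 17.8 and 2.83 in C57BL/6J Il10-null, against 6.12 and 3.46 in C57BL/6J wild type, and 7.00 and 5.80 in C3H/HeJBir Il10-null, against 5.73 and 12.1 in C3H/HeJBir wild type. Its reading was thus as low in C3H/HeJBir as in C57BL/6J. Without probe sequences, how well this probe set reads H2-Ea RNA in C3H/HeJBir is unknown, so absence of that RNA is not shown. H2-Oa, the alpha chain of a B cell inhibitor of the DM exchanger, read 20.8 and 19.6 in C57BL/6J Il10-null, against 6.70 and 14.9 in C57BL/6J wild type, and 20.1 and 30.3 in C3H/HeJBir Il10-null, against 101 and 29.0 in C3H/HeJBir wild type. Its partner H2-Ob read 7.39 and 21.2 in C57BL/6J Il10-null, against 4.86 and 4.88 in C57BL/6J wild type, and 29.2 and 10.02 in C3H/HeJBir Il10-null, against 31.5 and 55.1 in C3H/HeJBir wild type. Between the wild types H2-Ob was higher in C3H/HeJBir by a log2 of 1.74 ± 0.41 and H2-Oa by 1.64 ± 0.47, and neither passed (limma without a filter, adjusted p = 0.408 and 0.593). For Il10-null less wild type the log2 differences of H2-Oa were 0.54 ± 0.47 in C57BL/6J, where the groups did not overlap, and -0.90 ± 0.47 in C3H/HeJBir. H2-Ob likewise had 0.62 ± 0.41 in C57BL/6J, without overlap, and -0.87 ± 0.41 in C3H/HeJBir (limma without a filter, adjusted p = 1.000 for each of the 4). H2-DMb2 read 10.4 and 18.1 in C57BL/6J Il10-null, against 34.6 and 46.8 in C57BL/6J wild type, a log2 difference of -1.04 ± 0.32 (adjusted p = 1.000 without a filter), opposite in sign to the probe set it shares with H2-DMb1.

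On chromosome 17 the family lies in one stretch, from H2-Oa to H2-Ea, with 16 genes in RefSeq, of which 15 were measured. Between H2-DMb1 and H2-Ob lie 4 genes of the class I pathway, the immunoproteasome subunits Psmb9 and Psmb8 and the peptide transporter subunits Tap1 and Tap2. Psmb9 read 161 and 459 in C57BL/6J Il10-null, against 122 and 120.0 in C57BL/6J wild type, and 891 and 277 in C3H/HeJBir Il10-null, against 223 and 238 in C3H/HeJBir wild type. Its high pools were those of the class II genes. The log2 differences of Psmb8 were 1.24 ± 0.45 in C57BL/6J and 0.65 ± 0.45 in C3H/HeJBir, those of Tap1 1.00 ± 0.50 and 0.47 ± 0.50, and those of Tap2 0.25 ± 0.32 and 0.50 ± 0.32 (limma adjusted p = 1.000 in C57BL/6J and 0.999 in C3H/HeJBir for each). Brd2, a chromatin reader encoded between H2-Oa and H2-DMa, had -0.13 ± 0.27 and -0.47 ± 0.27.

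Genes that act with the class II system were read from 6 lists with 42 symbols, of which 34 had a probe set of 1 gene and 23 were tested. None of the 23 was called in any of the 6 comparisons (limma, smallest adjusted p = 0.863), with a median of 0.00 for C57BL/6J and of -0.05 for C3H/HeJBir for the Il10 effect. The promoter-binding factors had 4 of 7 genes tested and a median of 0.07 for C57BL/6J and of -0.06 for C3H/HeJBir. Rfxank, a subunit of RFX, differed by -0.41 ± 0.31 in C57BL/6J, and Nfyb, a subunit of NF-Y, by 0.25 ± 0.24 in C3H/HeJBir, where Nfya had -0.33 ± 0.25. Between the wild types Rfxank had -0.68 ± 0.31 (limma adjusted p = 0.908). Rfx5 and Rfxap had no probe set of their own.

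The list of endosomal proteases, which cut Cd74 and the antigens, also held the thiol reductase Ifi30 and the protease inhibitor Cst3. Its medians were near that of the array. All 10 genes were tested, with a median of -0.02 for C57BL/6J and of -0.05 for C3H/HeJBir. The differences furthest from 0 were those of Ctsd in C57BL/6J (-0.19 ± 0.24) and of Lgmn in C3H/HeJBir (0.49 ± 0.25). Ctsh was 0.16 ± 0.30 in C57BL/6J and Ifi30, the thiol reductase, -0.35 ± 0.26 in C3H/HeJBir. In the wild-type strain comparison Ctsh had -0.64 ± 0.30 and Ctse 0.53 ± 0.24. The summed intensity of the 10 genes was 8321 and 9313 in C57BL/6J Il10-null, against 8343 and 9732 in C57BL/6J wild type, and 9097 and 9952 in C3H/HeJBir Il10-null, against 9180.0 and 9939 in C3H/HeJBir wild type.

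Interferon gamma signalling had 7 of 10 genes tested, with a median of 0.29 for C57BL/6J and of 0.28 for C3H/HeJBir, and 5 of 7 were positive in each. Irf1, a transcription factor that drives Ciita, read 738 and 1277 in C57BL/6J Il10-null, against 646.5 and 856 in C57BL/6J wild type, and 1506 and 1143 in C3H/HeJBir Il10-null, against 754 and 1112 in C3H/HeJBir wild type. Socs1, the feedback inhibitor of the pathway, read 76.3 and 104 in C57BL/6J Il10-null, against 58.3 and 60.4 in C57BL/6J wild type, and 311 and 85.2 in C3H/HeJBir Il10-null, against 68.1 and 78.0 in C3H/HeJBir wild type. Both had their highest reading in C3H/HeJBir Il10-null sample 1. The log2 difference of Socs1 was 0.51 ± 0.49 for C57BL/6J and 1.07 ± 0.49 for C3H/HeJBir. Irf8 differed by 0.61 ± 0.35 in C57BL/6J, and Irf1 by 0.51 ± 0.34 in C3H/HeJBir. In the wild-type strain comparison Irf8 had 0.51 ± 0.35 and Jak1, a receptor kinase, 0.37 ± 0.22. Ifng itself read between 1.2 and 4.72 in all pools, near the bottom of the scale.

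Costimulation and the T cell side were thinly measured, with 1 tested gene in each list. Cd40, which receives help from T cells, had a log2 difference of -0.30 ± 0.46 in C3H/HeJBir and -0.63 ± 0.46 between the wild types. Below the filter, Cd80 differed by 0.25 ± 0.44 in C57BL/6J and by -0.60 ± 0.44 in C3H/HeJBir. Icam1 differed by -0.24 ± 0.48 in C57BL/6J. Cd4, the co-receptor that binds class II, differed by -0.34 ± 0.38 in C57BL/6J, by -0.10 ± 0.38 in C3H/HeJBir and by 0.39 ± 0.38 between the wild types. Lag3, an inhibitory receptor for class II, lay below the filter and differed by 0.45 ± 0.27 in C57BL/6J and 0.02 ± 0.27 in C3H/HeJBir.

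In whole colon, more cells of a class II type and more RNA per cell cannot be told apart. Sums below are over the genes of a list on the array. Dendritic cell markers had 9 of 10 on the array, 6 of them tested, and a summed intensity of 537 to 555 in C57BL/6J Il10-null, against 629.5 to 638 in C57BL/6J wild type, and of 656 to 778 in C3H/HeJBir Il10-null, against 568 to 823 in C3H/HeJBir wild type. B cell markers, with 5 of 9 tested, summed to 255 to 288.5 in C57BL/6J Il10-null, against 222 to 422 in C57BL/6J wild type, and to 180.5 to 405 in C3H/HeJBir Il10-null, against 404 to 488 in C3H/HeJBir wild type. By sum, neither list had its Il10-null pools above the wild-type pools in either strain. Flt3 and Fscn1 gave most of the dendritic cell sum in every pool. The median log2 difference, Il10-null minus wild type, of the 6 tested dendritic cell markers was -0.23 in C57BL/6J and 0.07 in C3H/HeJBir, with 3 positive in each. Itgax was among the positive ones, at 0.24 ± 0.29 and 0.45 ± 0.29. For the 5 tested B cell markers the medians were -0.13 and -0.54. T cell markers, with 1 of 9 tested, summed to 176 to 258 in C57BL/6J Il10-null, against 194 to 268 in C57BL/6J wild type, and to 182 to 262.5 in C3H/HeJBir Il10-null, against 205.5 to 221 in C3H/HeJBir wild type. Lymphoid follicle markers, with 2 of 7 tested, had deviations from -0.86 to 0.59 that did not follow the genotype.

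Macrophage and monocyte markers, with 11 of 13 tested, summed to 1862 to 2355 in C57BL/6J Il10-null, against 1949 to 2144 in C57BL/6J wild type, and to 4055 to 6073 in C3H/HeJBir Il10-null, against 3492 to 3775 in C3H/HeJBir wild type. Of these C3H/HeJBir sums Cd14, the co-receptor for bacterial lipopolysaccharide, gave 3829.5 and 2338 in Il10-null, against 1696 and 1881 in wild type. Cd14 was higher in C3H/HeJBir than in C57BL/6J wild type by a log2 of 2.34 ± 0.28 (limma adjusted p = 0.00958) and between the Il10-null groups by 2.50 ± 0.28 (adjusted p = 0.0112). The median log2 difference of the 11 genes, Il10-null minus wild type, was -0.14 in C57BL/6J and -0.05 in C3H/HeJBir. No marker value of any list was at 0, the lowest being 0.64.

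Sample 1 of C3H/HeJBir Il10-null, the highest pool in 6 of the 7 class II genes, also stood apart in other lists. Its neutrophil markers, with 2 of 7 tested, had a median log2 deviation of 2.43 from the mean of the arrays, and its summed intensity was 3066, against 591 to 1287 in the other 7 pools. Of these markers S100a8, S100a9 and Ly6g were highest in this pool, at 581, 173 and 2262. Mpo, Elane, Cxcr2 and Ngp, all below the filter, were not, at 8.21, 14.9, 19.2 and 7.97. In this pool the smooth muscle markers (8 of 8 tested) summed to 9693 and the fibroblast markers (6 of 6 tested) to 3064, each the lowest of the 8 pools. The exocrine pancreas markers (6 of 9 tested) summed to 4465, the highest, with a median deviation of 1.40. Among them Prss2, Cel and Ctrb1 were highest in this pool, at 1107, 388 and 1438. Cela1, Cela2a and Clps were not, at 1118, 160.0 and 253.9. That list was also high in sample 1 of C57BL/6J Il10-null, which was not high in class II, with a sum of 3314 and a deviation of 1.21. In the sample 1 wild-type pools its deviation was 0.45 for C57BL/6J and 0.25 for C3H/HeJBir. The other high class II pool, sample 2 of C57BL/6J Il10-null, was the second lowest in both smooth muscle, with a median deviation of -0.22, and fibroblast markers, with -0.33, where the remaining 6 pools had -0.11 to 0.31 and 0.03 to 0.32. Its neutrophil deviation was -0.18 and its exocrine pancreas deviation -0.55. Epithelial markers, with 11 of 11 tested, had deviations from -0.13 to 0.12 in all pools. Their summed intensity was highest in sample 1 of C3H/HeJBir Il10-null, at 42080, against 32970 to 37780 in the other pools. The part of these cell types in the class II readings was not tested.

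**Figure D5:**
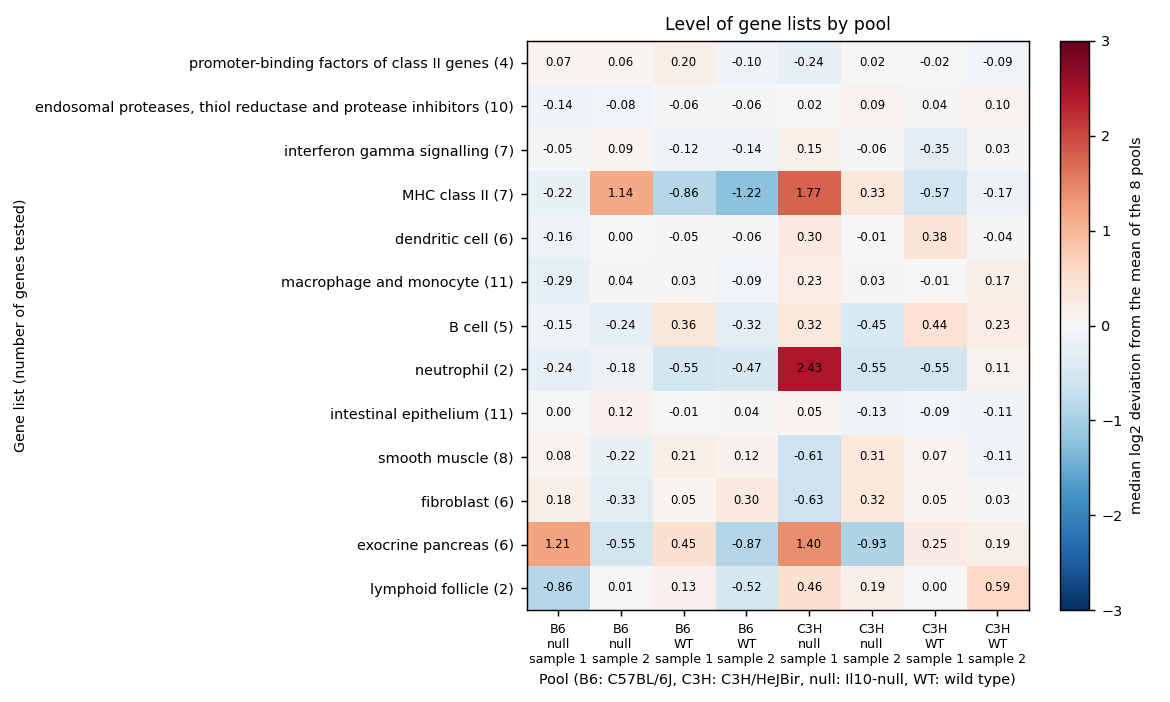
Median log2 deviation of the tested genes of each list from their mean over the 8 arrays, for lists with at least 2 tested genes (number in brackets), by pool. MHC class II is at 1.14 in sample 2 of C57BL/6J Il10-null and 1.77 in sample 1 of C3H/HeJBir Il10-null, and the neutrophil list, at 2.43 in that C3H/HeJBir pool, is at 0.11 or below in the other 7. The neutrophil list has 2 tested genes, of which S100a8 passed the filter only through that C3H/HeJBir pool.

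Among 6722 other tested probe sets with 1 gene symbol, the 10 genes most like the class II genes were ranked by the Pearson r, over the 8 pools, of their log2 values with the mean log2 deviation of the 7 genes. These r values are a description over pools that share strain, genotype and pool differences, and 17 probe sets (0.253%) exceeded 0.9. Psmb9 had the highest at 0.976. Next came Rpl22 (0.969), a ribosomal protein gene whose other tested probe set had -0.685, Iigp1 (0.959), an immunity-related GTPase, Cct3 (0.949), a chaperonin subunit whose other probe sets had 0.185 and -0.0634, and Reg3b (0.942), an antibacterial lectin. Ido1 (0.934), a tryptophan-degrading enzyme, AW112010 (0.929), Zfp91 (0.928), whose other tested probe set had -0.379, Ifi47 (0.924), another GTPase of the family of Iigp1, and Nfkbib (0.918), an inhibitor of NF-kappaB, completed the 10.

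The size of the change differed widely among these 10. Iigp1 read 163 and 670.0 in C57BL/6J Il10-null, against 44.1 and 49.2 in C57BL/6J wild type, and 932 and 287 in C3H/HeJBir Il10-null, against 71.9 and 155 in C3H/HeJBir wild type, with log2 differences of 2.58 for C57BL/6J and 2.17 for C3H/HeJBir. Ido1 read 118 and 206 in C57BL/6J Il10-null, against 26.3 and 17.9 in C57BL/6J wild type, and 370.5 and 80.2 in C3H/HeJBir Il10-null, against 44.4 and 47.0 in C3H/HeJBir wild type. In both genes, and in Rpl22, Reg3b and Zfp91 of the same 10, all 4 Il10-null pools lay above all 4 wild-type pools. Over all tested probe sets this held for 1.05%, and of the 7 class II genes for H2-DMa. The 10 were picked by their likeness to the class II genes in these same pools, so that share is no fair yardstick for them. Rpl22, Cct3, Reg3b, Zfp91 and Nfkbib ran in parallel at smaller differences, from 0.18 to 0.54.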

How the data were processed

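Each of the 8 pools gave 1 Affymetrix MG_U74Av2 array. The deposited table gives a linear intensity for every probe set, the lowest 0.03 and the highest 12860.0. The deposited arrays appear to have been scaled to a common level, since means trimmed at the extremes differed by a ratio of 1.01, and this level was kept. The sources used here name no summary algorithm and no background correction, and hold no detection calls. The experiment files gave the hybridisation days. Gene names came from the platform annotation, in which 10833 probe sets carried 1 symbol, 396 several and 1193 none, and gene order and promoters from RefSeq (GRCm38.p6).

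Values were taken as log2(intensity + 11.07), where the added value is the 20th percentile of the table. The test covered the 7454 probe sets whose mean reached 37.0, the 40th percentile. The linear model had 4 group means (limma 3.58.1, R 4.3.3, 4 residual and 4.23 prior degrees of freedom), two-sided, with Benjamini-Hochberg adjustment over all tested probe sets and a threshold of 0.05. A strain difference is C3H/HeJBir less C57BL/6J. The labels call sample 2 an independent replicate of sample 1, and p-values rest on the spread between pools, each of several animals. The fit was tested on simulated data.

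A gene with 2 probe sets was read by the brighter. Of the other lists, members past the threshold were named, and otherwise the 2 with the largest absolute difference in each Il10 effect and in the wild-type strain effect, with H2-Ea, H2-Oa, Ifng and Irf1 always sought, and 1 further gene that is not reported here. Members, lists and tests were chosen with earlier results of these data known. Pools of the same number deviated together from their group means (r from 0.198 to 0.332 over the 6 pairs of groups, across probe sets), so the sample number was tried as a block. Other alternatives were pseudocounts of 2.76 and 56.7, no filter or one at the 60th percentile, quantile normalization, scaling to a common median, trend and robust moderation, a fit of the compared groups only, a block on the day, and leaving out each pool.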

Additional observations from a re-analysis of the deposited data

How the results depend on the processing

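None of the 7 class II genes was called under any of the 10 alternatives or without any 1 pool, and the smallest adjusted p of a member in any of these fits was 0.0953 (limma). The replicate block, which pairs pools by sample number, changed no call of a member and gave 0, 1, 0, 0, 31 and 23 called probe sets for the Il10 effect in C57BL/6J, that in C3H/HeJBir, their difference, their average, and the strain effect in wild type and in Il10-null. Over the whole array, the Il10 effect in C57BL/6J had 0 called probe sets and 1 with the pseudocount of 56.7, the filter at the 60th percentile, or trend and robust moderation. That in C3H/HeJBir had 1, and 0 with the pseudocount of 2.76, no filter, median scaling, compared groups only or the day block, and 0 to 7 without 1 pool. The average Il10 effect had 0, and 0 to 11 without 1 pool. The strain effect in wild type had 30, with 53 at the pseudocount of 56.7, 51 with trend and robust moderation, 49 in compared groups only, 19 with the day block and 2 to 39 without 1 pool. In Il10-null it had 22, with 45 at that pseudocount, 14 without a filter, 45 with trend and robust moderation, 12 in compared groups only, 6 with the day block and 4 to 34 without 1 pool. Ciita and the shared probe set lay below the filter at the 60th percentile. The causes were not tested.

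Without 1 pool, the median of the 7 genes ran from 0.55 to 2.19 for the Il10 effect in C57BL/6J, 0.66 to 2.14 in C3H/HeJBir, 0.97 to 1.86 averaged, -0.77 to 0.88 for the difference between the strains, 0.51 to 0.83 for the strain effect in wild type and -0.14 to 1.23 in Il10-null. Ciita turned to 0.32 in C3H/HeJBir and 0.46 averaged with the day block, and the shared H2-DMb2 and H2-DMb1 probe set turned to 0.05 in the difference between strains at the pseudocount of 56.7. Sign changes without 1 pool gave ranges of -0.79 to 0.94 for Ciita in C57BL/6J, -0.49 to 0.37 for Ciita averaged and -0.05 to 1.84 for H2-Eb1 in C3H/HeJBir. For the difference between the strains they were -0.92 to 0.60 (Cd74), -0.53 to 1.38 (H2-Aa), -0.94 to 0.98 (H2-Ab1), -1.01 to 0.88 (H2-Eb1), -1.07 to 0.41 (H2-DMa), -0.64 to 1.36 (H2-DMb1), -1.14 to 0.58 (Ciita) and -1.01 to 0.52 (shared). For the strain effect they were -0.04 to 0.51 (H2-Eb1) in wild type, and in Il10-null -0.14 to 1.38 (Cd74), -1.19 to 0.73 (H2-Ab1), -0.77 to 1.12 (H2-Eb1), -0.17 to 1.30 (H2-DMa), -0.51 to 1.21 (Ciita) and -0.05 to 1.48 (shared). With 2 pools a group, leaving out 1 leaves a lone pool that is assumed to vary like the others. Ciita and the second H2-DMa probe set are dim, which limits both. The pseudocounts of the within-array pairs were added after seeing the data.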
